A study of Mus musculus with 6 samples.

Results

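Transcripts of 8 tooth genes were followed library by library in bulk RNA-seq of dissected mouse nasal conchae, the tissue labelled olfactory epithelium. The genes were Amelx, Ambn, Enam, Amtn, Klk4, Mmp20, Odam and Dspp, picked by symbol from the deposited gene table, and all 8 were found among its 49164 genes with counts. They were proposed with the counts of these libraries already known, so their levels and differences between groups are given as a description and without a test. In the 3 sFlt1 mice a tet-sFlt1 transgene, coding for a soluble form of the VEGF receptor Flt1, was combined with camk2a-tTa and switched on by removing tetracycline from embryonic day 13.5. MRI at 2 months put the olfactory bulb of sFlt1 replicate 1 at 28% of normal size, that of replicate 2 at 29% and that of replicate 3 at 14%. The 3 controls are labelled WT, with no treatment and a bulb of normal size. All 6 are labelled c57Bl6/ICR crossbred males at 3 months of age, and 1 library was made per mouse from 200 ng of total RNA. The camk2a promoter is known for driving expression in forebrain neurons.

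Enamel is laid down by ameloblasts, an epithelium that secretes a protein matrix, digests it with proteases and fills the space with mineral. Dentin is laid down beneath it by odontoblasts, cells of the dental pulp that resemble osteoblasts in many of the genes they use. Rodent incisors erupt throughout life, so secreting ameloblasts are present in the adult, and the upper incisor is embedded in bone beside the nasal cavity. None of these cells is part of the olfactory epithelium.

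Library totals ranged from 28832424 to 46444862 counts. Summed levels of 8 genes of mature olfactory sensory neurons were 3477, 6505 and 1646 CPM (counts relative to the TMM-scaled library size) in sFlt1 replicates 1, 2 and 3, against 9282, 9937 and 7168 CPM in control replicates 1, 2 and 3. Neurons of the labelled tissue were thus represented in all 6 libraries, at lower levels in the 3 sFlt1 mice. Despite the male labels, Xist, the transcript of the inactive X chromosome, stood at 523.7 CPM in sFlt1 replicate 3 and at 709.9 CPM in control replicate 1, and at 0.371 CPM or less in the other 4 libraries. Control replicate 3 stood apart in brain transcripts, with the GABA-synthesis gene Gad1 at 568.6 CPM. Over the lists for these tissues, 8 of 8 olfactory neuron genes and 6 of 6 brain genes had lower estimates in sFlt1 mice, the medians on the log2 scale being -1.13 and -3.89, and 0 passed the edgeR test. The olfactory neuron median was -1.72 without sFlt1 replicate 2. The brain median was -1.26 without control replicate 3 and -6.26 without sFlt1 replicate 3, and Th, the enzyme of dopamine synthesis, passed by DESeq2 (adjusted p = 5.1e-05).

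The promoters of 5 of the members shared a short element at a similar place. Upstream sequences from RefSeq (GRCm38.p6) were at hand for 7 of the 8 genes, and the 100 bases before the annotated start of those 5 are shown because the genes belong to 1 family of secreted calcium-binding proteins and Odam, unlike the others, was well detected in all 6 libraries. Capitals mark TGATTGG, the reverse complement of the CCAAT box CCAATCA. The Amelx window is chrX:169187210-169187309 on the minus strand. The other windows are on the plus strand of chromosome 5, at chr5:88455891-88455990 for Ambn, chr5:88487875-88487974 for Enam, chr5:88376008-88376107 for Amtn and chr5:87884910-87885009 for Odam.
Amelx: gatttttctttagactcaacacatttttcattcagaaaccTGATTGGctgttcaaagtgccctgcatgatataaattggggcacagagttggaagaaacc
Ambn: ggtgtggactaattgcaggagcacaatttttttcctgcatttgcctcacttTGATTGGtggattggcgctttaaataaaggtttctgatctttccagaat
Enam: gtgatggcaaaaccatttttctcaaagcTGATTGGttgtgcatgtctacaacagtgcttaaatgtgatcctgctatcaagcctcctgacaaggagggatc
Amtn: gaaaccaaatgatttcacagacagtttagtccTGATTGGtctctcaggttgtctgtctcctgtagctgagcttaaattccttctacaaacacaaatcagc
Odam: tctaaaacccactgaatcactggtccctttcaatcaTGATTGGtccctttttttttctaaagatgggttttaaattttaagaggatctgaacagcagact

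TGATTGG began 60 bases before the start in Amelx, 49 in Ambn, 72 in Enam, 68 in Amtn and 64 in Odam. CCAATCA was searched on both strands in the 250 bases before the start, a choice made after these sequences had been read. It was found in these 5 of the 7 members, always as TGATTGG on the gene's own strand, and in 7.23% of the 32851 promoters of the table. The windows of Klk4 and Mmp20 did not hold these letters. The shorter CCAAT, which lies inside it, was held by the same number of members, 5 of 7, and by 33.8% of all promoters. A match is a string of letters, not a bound site.

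The structural proteins of the enamel matrix were abundant in sFlt1 replicate 1, present in all 3 controls and at 2 counts or fewer in sFlt1 replicates 2 and 3. Amelx (ENSMUSG00000031354, chromosome X, 167959110 to 167970196, minus strand, GRCm39) encodes amelogenin, the main protein of the forming matrix. It had 34665, 0 and 0 counts in sFlt1 replicates 1, 2 and 3, against 5519, 628 and 6379 counts in control replicates 1, 2 and 3. On the CPM scale these were 1217, 0 and 0 in sFlt1 mice, against 163.7, 22.4 and 142.6 in controls. The highest and the lowest Amelx values of the series were thus both in sFlt1 mice, and the controls lay between them.

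Ambn (ENSMUSG00000029288, chromosome 5, 88603850 to 88616390) encodes ameloblastin, a matrix protein that ties ameloblasts to the enamel surface. It stood at 717.1, 0.044 and 0.023 CPM in sFlt1 replicates 1, 2 and 3, against 80.7, 9.55 and 90.6 CPM in control replicates 1, 2 and 3. The small values in sFlt1 replicates 2 and 3 were 2 and 1 counts. Enam (ENSMUSG00000029286, chromosome 5, 88635834 to 88653908) encodes enamelin, the largest and least abundant of these matrix proteins, which promotes elongation of the crystals. It stood at 159.2, 0 and 0 CPM in sFlt1 mice, against 17.0, 4.56 and 18.4 CPM in controls. All 3 genes placed the libraries in nearly the same order, with sFlt1 replicate 1 first and control replicate 2 lowest of those with more than 3 counts. Amelx was higher in control replicate 1 than in control replicate 3, and Ambn and Enam were lower there.

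**Figure D1:**
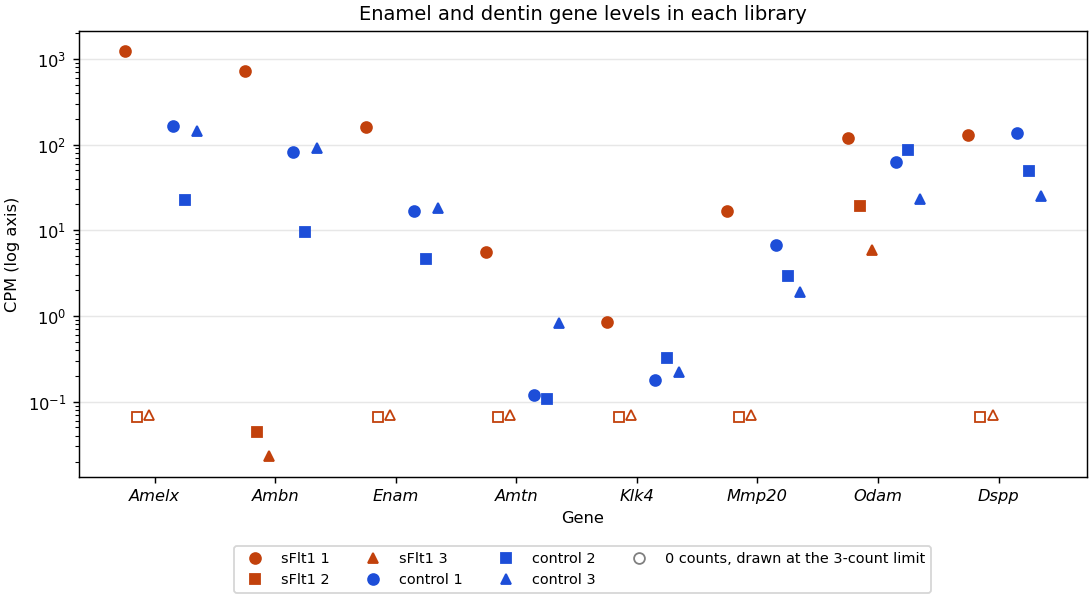
Level of each of the 8 genes in each library, in CPM on a log axis, with sFlt1 mice in orange and controls in blue. Open symbols are libraries with 0 counts, drawn at the level of 3 counts. In sFlt1 replicates 2 and 3 only Odam is well above that level, and sFlt1 replicate 1 is the highest library for every gene but Dspp.

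Counts of 0 in sFlt1 replicates 2 and 3 allow up to 0.0655 and 0.069 CPM, the level of 3 counts in each library. Against the higher of these limits, Amelx in sFlt1 replicate 1 was at least 17600-fold higher than in sFlt1 replicates 2 and 3, and Enam at least 2310-fold higher. These limits cover counting error only. In bulk tissue, fewer cells of a type and less RNA per cell cannot be told apart.

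Amtn (ENSMUSG00000029282, chromosome 5, 88523967 to 88533775) encodes amelotin, which ameloblasts deposit at the enamel surface late in its formation. It had 157, 0 and 0 counts in sFlt1 replicates 1, 2 and 3, against 4, 3 and 37 counts in control replicates 1, 2 and 3. In CPM it reached 5.51 in sFlt1 replicate 1 and 0.827 in control replicate 3. It followed the matrix genes in being highest in sFlt1 replicate 1, but control replicate 1 held hardly any of it beside its 5519 Amelx counts.

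The 2 enamel proteases had low counts. Mmp20 (ENSMUSG00000018620, chromosome 9, 7628232 to 7674980) encodes enamelysin, a metalloprotease that cuts the matrix proteins while they are being secreted. It stood at 16.7, 0 and 0 CPM in sFlt1 replicates 1, 2 and 3, against 6.70, 2.92 and 1.92 CPM in control replicates 1, 2 and 3. Klk4 (ENSMUSG00000006948, chromosome 7, 43530584 to 43535228) encodes a serine protease that clears the matrix as the enamel matures. It had 24, 0 and 0 counts in sFlt1 mice, against 6, 9 and 10 counts in controls. Mmp20 was lowest of the controls in replicate 3, where Enam was highest.

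Odam behaved differently from the other 7 genes. Odam (ENSMUSG00000009580, chromosome 5, 88032888 to 88042033) encodes a secreted protein of maturing ameloblasts and of the gum epithelium attached to the tooth, and in mouse it is also made by glands of the nose and mouth. It stood at 118.1, 19.3 and 5.88 CPM in sFlt1 replicates 1, 2 and 3, against 63.1, 86.7 and 22.9 CPM in control replicates 1, 2 and 3. The 884 and 256 Odam counts of sFlt1 replicates 2 and 3 came from libraries with 0 Amelx counts. Control replicate 2, which was lowest of the controls in Amelx, Ambn and Enam, was highest of the controls in Odam.

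Dspp (ENSMUSG00000053268, chromosome 5, 104318578 to 104327993) is the member made by odontoblasts, and its product is cut into the main non-collagen proteins of dentin. It had 3719, 0 and 0 counts in sFlt1 replicates 1, 2 and 3, against 4540, 1388 and 1130 counts in control replicates 1, 2 and 3. On the CPM scale these were 130.5, 0 and 0 in sFlt1 mice, against 134.7, 49.4 and 25.3 in controls. It was detected in the same 4 libraries as the enamel matrix genes, but sFlt1 replicate 1 was 0.969 times control replicate 1 for Dspp and 7.43 times for Amelx.

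The mix of tooth transcripts differed between the 4 libraries that held them. Set against Amelx, Ambn made up 37.1% of the summed Ambn and Amelx counts in sFlt1 replicate 1 (95% Wilson interval 36.7 to 37.5), against 33.0%, 29.9% and 38.8% in control replicates 1, 2 and 3. Enam likewise made up 11.6% of its sum with Amelx in sFlt1 replicate 1, against 9.39%, 16.9% and 11.4% in the controls. Per 100 Amelx reads there were 42.7 to 63.5 Ambn reads, a 1.49-fold range, and 10.4 to 20.4 Enam reads, a 1.97-fold range, over libraries in which Amelx itself ranged 54.4-fold in CPM.

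Dspp ranged from 10.7 to 221 reads per 100 Amelx reads, or 20.6-fold, and Mmp20 from 1.35 to 13.1 reads, or 9.69-fold. Odam had the widest range, from 9.71 to 387 reads, or 39.9-fold. Klk4 and Amtn, both on low counts, ranged 20.7-fold and 8.0-fold. Dspp made up 9.69% of its sum with Amelx in sFlt1 replicate 1 (interval 9.40 to 9.99), against 45.1% (44.2 to 46.1), 68.8% (66.8 to 70.8) and 15.0% (14.3 to 15.9) in control replicates 1, 2 and 3. These intervals do not overlap, though they cover counting error only. Mmp20 made up 1.35% of its sum with Amelx in sFlt1 replicate 1 (interval 1.24 to 1.48), against 3.93% (3.46 to 4.47), 11.5% (9.40 to 14.1) and 1.33% (1.08 to 1.64) in control replicates 1, 2 and 3. Control replicates 2 and 1 had the most Dspp and the most Mmp20 per Amelx, while the Mmp20 intervals of sFlt1 replicate 1 and control replicate 3 overlapped. Both shares are set against the same Amelx counts, only 628 in control replicate 2. Their common order is therefore partly built in and is no separate result.

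**Figure D2:**
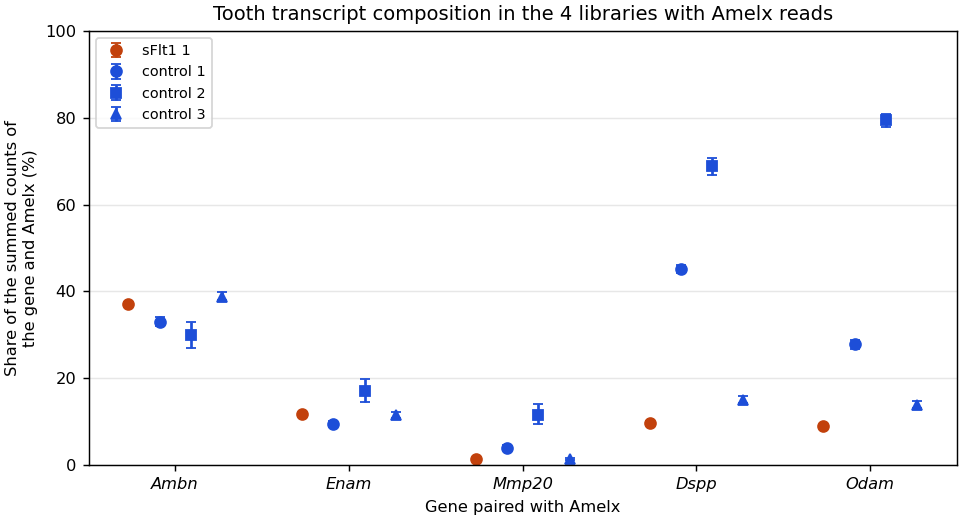
Share of 5 genes in the summed counts of that gene and Amelx, in percent, in the 4 libraries with Amelx counts. Orange is sFlt1 replicate 1, blue are the controls, and bars are 95% Wilson intervals. Ambn stays between 29.9% and 38.8%, while Dspp runs from 9.69% to 68.8% and Odam from 8.85% to 79.5%.

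Per kilobase of exon (GENCODE M21 lengths), Amelx had the highest level of the 8 genes in sFlt1 replicate 1, at 1220 CPM per kb, and in control replicates 1 and 3, at 164 and 143 CPM per kb. Ambn followed at 374 CPM per kb in sFlt1 replicate 1, and Enam was at 29.0 CPM per kb there, close to Dspp at 29.5. In control replicate 2, Odam led at 63.0 CPM per kb, ahead of Amelx at 22.4 and Dspp at 11.2 CPM per kb. Klk4 and Amtn were at 0.809 CPM per kb or less in every control.

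Without Odam, the members took 0.211% of all counts in sFlt1 replicate 1 (95% Wilson interval 0.210 to 0.213), against 0.0422%, 0.00869% and 0.0269% in control replicates 1, 2 and 3. In sFlt1 replicates 2 and 3 they took 2 and 1 counts, all of them Ambn. The sFlt1 group thus held both the highest and the lowest sums of the series.

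Amtn, Ambn and Enam lie in that order on the plus strand within 129.9 kb (88523967 to 88653908, GRCm39), with no other protein-coding gene between them. Odam lies at the other end of a 621.0 kb block with 14 protein-coding genes. Of the genes near it, Cabs1 had 5840, 2184 and 867 counts in sFlt1 replicates 1, 2 and 3, against 3923, 8531 and 2451 counts in control replicates 1, 2 and 3. 2310003L06Rik had 8854, 2654 and 1890 counts in sFlt1 mice, against 7965, 13176 and 1890 counts in controls, so that both, like Odam, had reads in all 6 libraries. Smr2, between them and Amtn, had 0 counts in all 6. These neighbours were chosen after their values were seen.

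Dspp heads another block of chromosome 5, with Dmp1, Ibsp, Mepe and Spp1, acidic phosphoproteins of dentin and bone. Ibsp, bone sialoprotein, stood at 186.4, 115.6 and 18.2 CPM in sFlt1 replicates 1, 2 and 3, against 118, 16.8 and 12.3 CPM in control replicates 1, 2 and 3. Spp1, osteopontin, stood at 483.5, 428.2 and 169.6 CPM in sFlt1 mice, against 185.2, 91.6 and 75.4 CPM in controls. Both were well detected in sFlt1 replicate 2, where Dspp had 0 counts. Of Dmp1, Ibsp, Mepe, Spp1 and Phex, a peptidase of mineralising cells, 5 of 5 had higher estimates in sFlt1 mice (median 1.12 on the log2 scale, 0.46 without sFlt1 replicate 1, 0.71 without control replicate 2 and 2.03 without control replicate 1), and 0 passed (edgeR's quasi-likelihood test with Benjamini-Hochberg adjustment, adjusted p = 0.43 for Spp1 and 0.71 for Ibsp).

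Amelx lies within the span of Arhgap6, a gene on the opposite strand. Arhgap6 had 145, 134 and 211 counts in sFlt1 mice, against 179, 159 and 198 counts in controls, and so did not follow Amelx. Whether strand was used in counting is not stated in the labels. Amelx is also X-linked, and of the 2 libraries with Xist reads, sFlt1 replicate 3 had 0 CPM and control replicate 1 had 163.7 CPM.

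Fitted group differences of the members rested on sFlt1 replicate 1. Amtn and Klk4 did not pass the filter on low counts, and the other 6 members did. The log2 fold change of sFlt1 over control was 1.89 (SE 2.68) for Amelx, 1.99 (SE 2.55) for Ambn and 1.99 (SE 2.36) for Enam. It was 0.53 (SE 2.06) for Mmp20, -0.27 (SE 1.01) for Odam and -0.68 (SE 2.22) for Dspp. Amelx averaged 405.6 ± 702.5 CPM in sFlt1 mice and 109.6 ± 76.2 CPM in controls (SD, n = 3 each), and Dspp 43.5 ± 75.4 CPM in sFlt1 mice and 69.8 ± 57.5 CPM in controls. For 0 of the 8 members did the groups stand clear of each other, while they did for 18.3% of all 19899 genes tested.

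Leaving out sFlt1 replicate 1 turned the direction of Amelx, Ambn, Enam and Mmp20 and moved Odam to -2.19. In the remaining sFlt1 libraries Ambn had 2 and 1 counts, Odam stood at 19.3 and 5.88 CPM, and the other members had 0 counts. This split was read with the values known. How many of all genes lie below every control in it was not computed, so no count of members is drawn from it. Set against the 3-count limit per library, the remaining sFlt1 libraries were at least 1590-fold lower than the control mean for Amelx and 1010-fold for Dspp. The bound was 193-fold for Enam and 55.8-fold for Mmp20. The same bound was 5.09-fold for Amtn and 3.49-fold for Klk4, whose counts were low in the controls too. The direction of Amelx, Ambn, Enam and Mmp20 in sFlt1 mice thus rested on 1 mouse. Leaving out control replicate 1 turned Dspp to 0.23. Odam turned to 0.11 without sFlt1 replicate 2, to 0.25 without sFlt1 replicate 3 and to 0.15 without control replicate 2.

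Over all genes edgeR passed 0 of 19899 (0% called, smallest adjusted p = 0.42, 2204 genes at an unadjusted p under 0.05), and DESeq2 passed 468 (2.53% of those with an adjusted p). Against that background, 16 other genes of enamel formation were examined, chosen for ion transport, phosphorylation, adhesion or sensing in ameloblasts. Of the 15 tested, 10 had higher and 5 lower estimates in sFlt1 mice, 0 passed by edgeR, and the median log2 fold change was 0.25, beside 0.017 over all genes. Acp4, a phosphatase needed for enamel, was the member of this list that shared the pattern of the matrix genes, at 4.04, 0 and 0 CPM in sFlt1 replicates 1, 2 and 3, against 0.771, 0.142 and 0.693 CPM in control replicates 1, 2 and 3. Odaph of this list did not share it, with 21, 9 and 23 counts in sFlt1 mice, against 2, 3 and 11 counts in controls. Odaph did not pass the filter on low counts. The estimate for Acp4 was 1.29 on the log2 scale (SE 1.90) and did not pass (edgeR adjusted p = 0.82). Slc24a4, an ion exchanger of maturing ameloblasts and, in mouse, of olfactory sensory neurons, stood at 53.9, 83.2 and 59.8 CPM in sFlt1 mice, against 83.3, 101.5 and 82.1 CPM in controls. Fam20c, the kinase that phosphorylates secreted enamel and bone proteins, stood at 43.6, 28.2 and 38.2 CPM in sFlt1 mice, against 30.6, 26.9 and 64.0 CPM in controls. Both were present in libraries with and without Amelx. The list's median was -0.02 without sFlt1 replicate 1. Lamb3, a laminin chain shared with other epithelia, passed by DESeq2 (adjusted p = 0.0032) and not by edgeR (adjusted p = 0.43), with a log2 fold change of 1.06 (SE 0.21).

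Factors of dental epithelium were not limited to the libraries with Amelx. Of 8 genes, 5 had higher and 3 lower estimates in sFlt1 mice, 0 passed by edgeR, and the median was 0.37, or -0.11 without sFlt1 replicate 1. Sp6, a factor that ameloblasts require, stood at 18.2, 3.17 and 2.39 CPM in sFlt1 replicates 1, 2 and 3, against 11.3, 7.41 and 4.54 CPM in control replicates 1, 2 and 3. Msx1, a homeobox factor of the tooth bud, stood at 10.3, 5.28 and 3.75 CPM in sFlt1 mice, against 4.84, 2.53 and 4.34 CPM in controls. Shh, a signal of tooth epithelium, had 64, 0 and 7 counts in sFlt1 mice, against 30, 33 and 95 counts in controls. Bcl11b, which many other cells use, stood at 76.0, 97.5 and 33.9 CPM in sFlt1 mice, against 91.8, 68.1 and 92.1 CPM in controls.

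**Figure D3:**
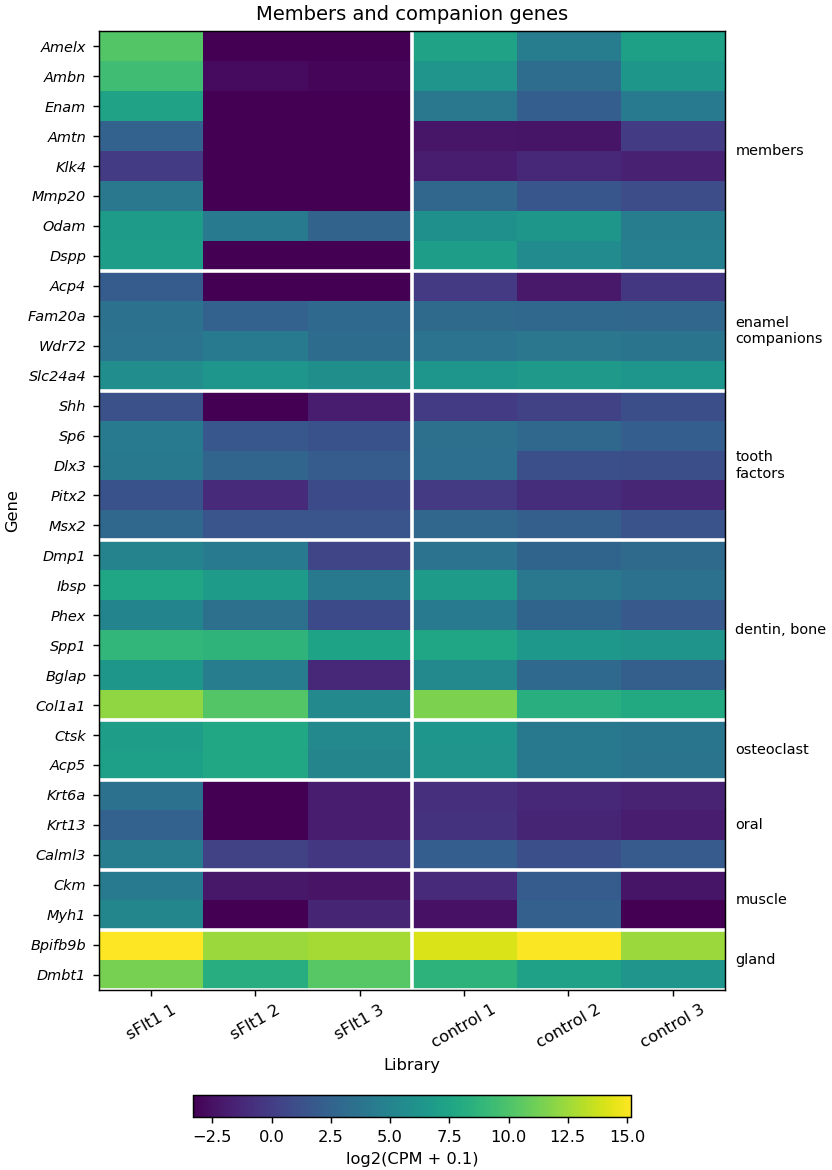
Levels as log2(CPM + 0.1) of the 8 members and of companion genes by library, with the sFlt1 mice left of the controls. The companions drawn are a selection made after their values were seen. In sFlt1 replicates 2 and 3 the cells of 7 members and of Acp4 are among the darkest, while bone genes such as Ibsp, at 115.6 CPM, remain in sFlt1 replicate 2.

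Bone transcripts were well detected in sFlt1 replicate 2, which lacked the enamel matrix genes, and several were low in sFlt1 replicate 3. All 11 osteoblast genes had higher estimates in sFlt1 mice, 0 passed by edgeR, and the median log2 fold change was 0.64, or -0.30 without sFlt1 replicate 1. Col1a1, a collagen chain of bone and dentin, stood at 4500, 1204 and 42.2 CPM in sFlt1 replicates 1, 2 and 3, against 2945, 316.8 and 235.2 CPM in control replicates 1, 2 and 3. Ifitm5, a membrane protein of osteoblasts, stood at 3.30, 1.27 and 0.161 CPM in sFlt1 mice, against 1.36, 0.071 and 0.067 CPM in controls. In sFlt1 replicate 2 the osteoblast list summed to 3223 CPM, above control replicates 2 and 3 at 782.8 and 820.8 CPM, although the 7 members other than Odam had 2 counts in it. Most of this sum was Col1a1, Col1a2 and Sparc, at 1204, 1409 and 496.5 CPM. Sp7, at 12.4 CPM there, was not above control replicate 3, at 12.6 CPM, and Sost, at 0.306 CPM, was below every control. The other genes of the list were above control replicates 2 and 3. In sFlt1 replicate 3 the list summed to 571.2 CPM, the lowest of the 6 libraries, of which 411 CPM were Sparc, a matrix protein that many other cells make. Sp7, a factor that osteoblasts require, was at 0.759 CPM in sFlt1 replicate 3, and Bglap, osteocalcin, at 0.345 CPM, both below every control. In contrast, Runx2, Sost, Ifitm5 and Sparc of this list were not below every control in that library. Runx2 was at 15.2 CPM there, against 25.5, 11.7 and 11.6 CPM in control replicates 1, 2 and 3. Osteoclast genes were high in sFlt1 replicate 2. They summed to 391.6, 549.2 and 124.4 CPM in sFlt1 replicates 1, 2 and 3, against 219.5, 56.9 and 53.1 CPM in control replicates 1, 2 and 3. Ctsk, the collagen-cutting protease of osteoclasts, stood at 124.8, 211.6 and 41.5 CPM in sFlt1 mice, against 85.5, 17.5 and 14.5 CPM in controls. All 9 osteoclast genes had higher estimates in sFlt1 mice, with a median of 1.56, and 0 passed by edgeR (adjusted p = 0.50 for Ctsk). Mmp9 and Tnfrsf11a of this list passed by DESeq2 (adjusted p = 0.020 and 0.037).

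The summed levels of oral epithelial and of muscle genes were highest in sFlt1 replicate 1, as were 5 of the 7 oral genes tested and 6 of the 6 muscle genes tested. Over all genes tested, 16.9% were highest in this library. The trait was shared by 11 of 11 osteoblast genes and 6 of 8 dental epithelium factors, but by 1 of 9 osteoclast genes. Krt6a, a keratin of oral and stressed epithelium, had 347, 0 and 7 counts in sFlt1 replicates 1, 2 and 3, against 17, 9 and 11 counts in control replicates 1, 2 and 3. Calml3, a calmodulin-like protein of squamous epithelium, stood at 22.7, 1.11 and 0.713 CPM in sFlt1 mice, against 4.51, 2.17 and 3.85 CPM in controls. Other oral genes were not highest there. Lor, a protein of the cornified layer, stood at 0.878, 0.720 and 1.08 CPM in sFlt1 mice, against 1.87, 2.10 and 2.93 CPM in controls (edgeR adjusted p = 0.43). The highest library was control replicate 1 for Krt10 and control replicate 2 for Krt76 and Sprr1b. The 10 oral genes summed to 53.7, 10.1 and 6.80 CPM in sFlt1 mice, against 17.4, 13.4 and 15.9 CPM in controls. Myh1, a myosin of fast skeletal muscle, had 1022, 0 and 12 counts in sFlt1 mice, against 3, 141 and 0 counts in controls. The 10 muscle genes summed to 126, 3.12 and 3.38 CPM in sFlt1 mice, against 4.42, 30.2 and 3.49 CPM in controls. Muscle thus ranked control replicate 2 second, where Amelx was the lowest of its 4 libraries. All 10 oral and all 10 muscle genes were in the table, and 7 and 6 of them were tested, of which 0 passed by edgeR, with medians of 1.21 and 1.5, or -1.59 and -2.39 without sFlt1 replicate 1. Of 7 cartilage genes tested, 2 had higher and 5 lower estimates, with a median of -0.12 that turned in sign when single mice were left out, 0 passed by edgeR, and Hapln1 passed by DESeq2 (adjusted p = 0.049). The part of these tissues in the members' levels was not tested.

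**Figure D4:**
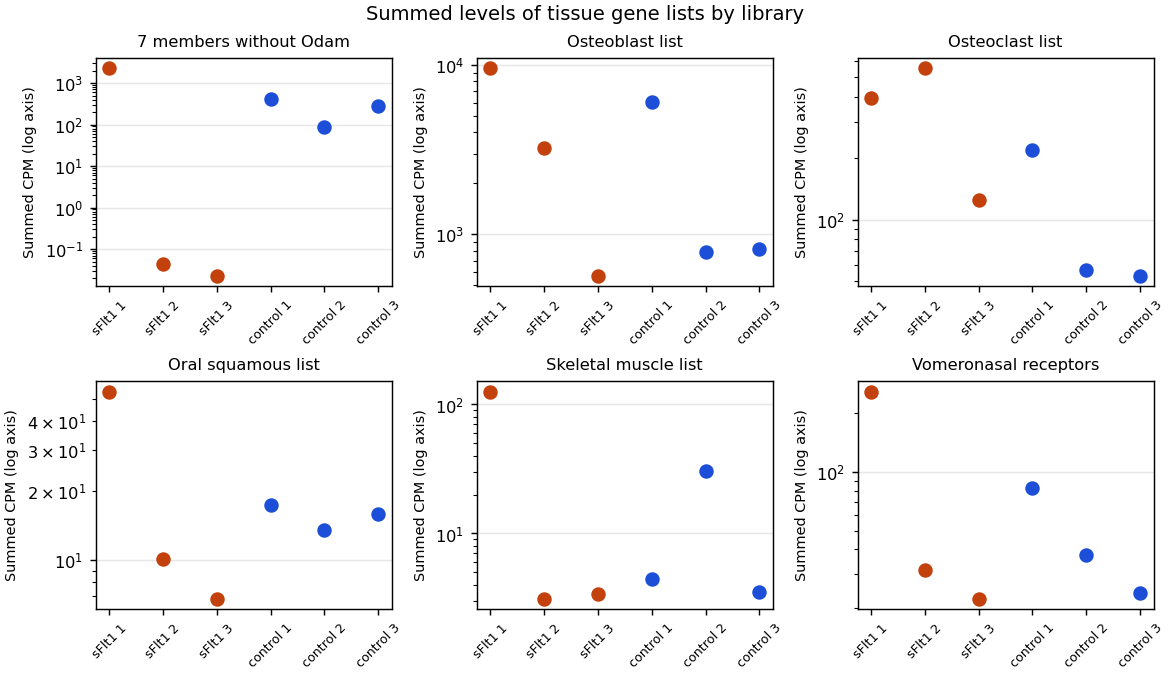
Summed CPM, on log axes, of the 7 members without Odam and of gene lists for osteoblasts, osteoclasts, oral squamous epithelium, skeletal muscle and vomeronasal receptors in each library, sFlt1 mice in orange and controls in blue. The tooth sum falls to 0.044 and 0.023 CPM in sFlt1 replicates 2 and 3, where the osteoblast sum is 3223 and 571.2 CPM.

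Odam was compared with gland and casein-cluster genes. Among the nasal secretion genes, Bpifb9b stood at 36950, 5248 and 6712 CPM in sFlt1 replicates 1, 2 and 3, against 17470, 33710 and 5294 CPM in control replicates 1, 2 and 3. Like Odam, it was highest in sFlt1 replicate 1 and control replicate 2. Of the 8 nasal gland genes, 6 were highest in sFlt1 replicate 1, beside 16.9% of all genes tested. The others, Bpifa1 and Muc5b, were highest in sFlt1 replicate 3, at 19600 and 826.1 CPM, where Odam was lowest. Obp1a, an odorant-binding protein of nasal glands, stood at 26740, 3905 and 1505 CPM in sFlt1 mice, against 5853, 9245 and 8860 CPM in controls. Csn3, kappa-casein, the next protein-coding gene after Odam on chromosome 5, stood at 9.34, 3.27 and 1.52 CPM in sFlt1 mice, against 1.72, 3.53 and 0.447 CPM in controls. Of 9 genes of this cluster that had counts listed, 3 were tested, of which 2 had higher and 1 lower estimates and 0 passed by edgeR. The median was 1.31, or 0.34 without sFlt1 replicate 1. Of 8 nasal gland genes 6 had higher estimates, 0 passed by edgeR, and the median was 0.60, or -1.06 without sFlt1 replicate 1, with Dmbt1 and Bpifa1 passing by DESeq2 (adjusted p = 0.030 and 0.045).

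The genes whose profile over the 6 libraries lay closest to the members' average were sought among all other genes with at least 50 summed counts, by the root mean square difference of log2 CPM centred on each gene's mean. The nearest were H2-M10.3 and H2-M10.5, at 1.29 and 1.42 on the log2 scale, followed by Acp4 at 1.47. H2-M10 genes encode MHC class I molecules known from sensory neurons of the mouse vomeronasal organ, and as near-identical paralogs their single counts are uncertain. H2-M10.3 had 99, 2 and 0 counts in sFlt1 replicates 1, 2 and 3, against 48, 57 and 134 counts in control replicates 1, 2 and 3. The other 7 of the nearest 10 were Krt6b, Shh, Mypn, Csta1, Gm40193, Ankrd63 and Rspo4, at 1.76 to 2.00. Among them Krt6b and Csta1 are genes of squamous epithelium and Mypn of striated muscle. For Amelx alone the nearest gene was H2-M10.3 at 3.41, farther than for the average profile. Nearest to Odam were Esp8, at 0.348, and the unnamed models Gm10743 and Gm14197. Esp8 belongs to a family of secreted gland peptides, and had 52, 22 and 5 counts in sFlt1 mice, against 48, 37 and 23 counts in controls.

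Because of those neighbours, vomeronasal receptors were summed after their values were seen. The 590 receptor genes of both families came to 259.3, 31.3 and 22.3 CPM in sFlt1 replicates 1, 2 and 3, against 83.0, 37.4 and 23.9 CPM in control replicates 1, 2 and 3. sFlt1 replicate 3, at 22.3 CPM, was near control replicate 3, at 23.9 CPM, but had 0 Amelx counts against 6379. The 7 genes of the H2-M10 family summed to 12.3, 0.240 and 0.138 CPM in sFlt1 mice, against 3.86, 3.81 and 4.90 CPM in controls. The receptor sum thus did not separate the libraries with tooth transcripts from those without. The H2-M10 sum was higher in all 4 libraries with them, but the family was taken up because H2-M10.3 and H2-M10.5 lay nearest the members. Its likeness to them was thus given by that choice and is no separate result. The part of vomeronasal receptor and H2-M10 transcripts in the members' levels was not tested.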

How the data were processed

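Values were whole-number counts for each Ensembl gene, deposited unnormalized by the authors per the file headers. The submitters' processing notes name HTSeq 2.0.1, TopHat2 2.2.1, DESeq2 1.26.0, cutadapt 3.5 and build GRCm39. Settings and strand use are not stated there. The 6250 blank entries among 55414 were dropped. A further 6 per-sample columns were not used. Columns were matched to mice by the spreadsheet letters in the sample descriptions.

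The fit used edgeR 4.0.16 under R 4.3.3, with TMM factors, filterByExpr, quasi-likelihood F-tests and Benjamini-Hochberg adjustment at 0.05, with DESeq2 1.42.0 as an alternative, and the fit was tested on simulated data. Each SE was obtained by dividing the log2 estimate by the square root of F. CPM uses TMM-scaled sizes. Likeness used a prior count of 2 and, for the average profile, members with 10 or more counts. The replicates are separate mice. The closest pair of libraries, control replicates 1 and 2, differed well beyond sampling noise (chi-square over degrees of freedom 81.4), so none was taken as a repeat. The members, lists and tests were chosen with earlier results of these data known. A rule picked from each list the 2 genes with the highest mean CPM. It also picked the gene with the largest ratio of its highest to its second-highest library, and any gene called. Not all genes picked by this rule are described one by one. Other named companions were chosen after their values were seen. P-values set the difference between the groups against the variation between mice of the same group, and intervals and floors cover counting error only. Alternatives were other scalings, count filters, DESeq2, a replicate block and leaving out mice. 1 companion gene is not reported here.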

Additional observations from a re-analysis of the deposited data

How the results depend on the processing

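edgeR called 0 genes, also under the other scalings and filters and with a replicate block, and DESeq2 called 468. Leaving out 1 mouse at a time gave 0 to 1 calls; the call, Gm44964, came without control replicate 2 (log2 fold change 7.63, edgeR adjusted p = 0.044, against 0.85 with all 6). Leaving out 1 mouse, log2 fold changes ranged from -15.05 to 2.47 for Amelx, -10.64 to 2.57 for Ambn, -12.01 to 2.58 for Enam, -10.24 to 1.22 for Mmp20, -2.19 to 0.25 for Odam and -14.43 to 0.23 for Dspp. The lowest came without sFlt1 replicate 1, where most sFlt1 counts are 0 and the fitted size depends on the prior count. List medians then ranged from -0.02 to 0.34 (ameloblast), -0.11 to 0.73 (dental factors), -0.30 to 1.61 (osteoblast), -0.73 to 0.26 (cartilage), -1.59 to 1.20 (oral), -2.39 to 3.19 (muscle), -1.06 to 0.99 (gland), 0.46 to 2.03 (dentin and bone phosphoproteins), 0.34 to 1.72 (casein cluster), 1.09 to 2.00 (osteoclast), -6.26 to -1.26 (brain) and -1.72 to -0.76 (olfactory neurons). Without both mice with Xist reads, Odam was 0.33 and Dspp 0.81. The medians were then 0.40 (cartilage), 2.05 (osteoblast), 2.46 (dentin and bone phosphoproteins), 2.30 (osteoclast) and -6.76 (brain). A replicate block turned Amelx to -6.93, Ambn to -5.53, Enam to -4.51 and Mmp20 to -4.04. Same-numbered mice shared only a number: their correlations were 0.0256, 0.246 and 0.357, and sFlt1 replicates 1 and 2 correlated best with another number. The causes of these changes were not tested. Klk4 and Amtn, with 10 and 37 counts or fewer in each control, are limited by depth.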
